A study of Homo sapiens with 6 samples.

Results

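The centromere and kinetochore genes described here are 37 named genes, grouped by the part of the structure their proteins belong to, of which 34 were measured by an array feature that carries 1 gene symbol. They are 34 of 16704 genes tested. CENPA and PMF1 were each covered by a feature shared with another symbol, and CENPE was not analysed here. Where a gene had several features, the one with the highest mean over the 6 arrays was taken.

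The data are log2 expression values of cytoplasmic RNA from LNCaP, an androgen-responsive prostate cancer cell line, on Affymetrix human Gene ST arrays. There were 3 MBD2 knockdown clones, stably transfected with a short hairpin RNA against MBD2, and 3 scrambled control clones, stably transfected with a scrambled hairpin, with 1 array per clone. All 6 clones carried the siLentGene-2 vector, had been selected with neomycin and were grown in T-Medium with heat-inactivated serum. MBD2 binds methylated CpG dinucleotides and recruits a repressor complex, and the comparison asks which genes differ in expression when it is reduced. The design text describes the 6 as separate stable clones, so p-values measure the spread between clones.

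The centromere is the stretch of chromatin, marked by the histone H3 variant CENP-A, on which the kinetochore is built. An inner network of CENP proteins sits on that chromatin, an outer network of KNL1, MIS12 and NDC80 complexes binds microtubules, and the chromosomal passenger complex and shugoshins correct attachments and protect sister cohesion. Many of these genes are transcribed mainly in dividing cells, late in the cell cycle, under the DREAM and FOXM1-MYBL2 systems. In RNA of whole cultures, fewer dividing cells and less RNA per dividing cell cannot be told apart.

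MBD2 itself stood at 7.68, 7.84 and 7.81 in knockdown clones 1, 2 and 3, against 8.73, 9.24 and 9.20 in control clones 1, 2 and 3, with no overlap. Its mean was 41.2% of the control level (log2 fold change -1.28, SE 0.14, adjusted p = 0.111 in limma). An exact two-sided permutation test gave p = 0.1, the smallest that 3 against 3 allows. Median values per array lay between 6.31 and 6.33. Knockdown clones 2 and 3 were the most alike of all pairs (SD of their difference over genes 0.185), and knockdown clones 1 and 3 the least alike (0.35). The 6 measured prostate luminal markers, among them KLK2, KLK3, KRT8 and KRT18, averaged 9.48 to 9.86 in the knockdown clones and 9.47 to 9.88 in the controls. KLK3 spread widely within both groups, at 8.66, 10.30 and 10.44 in knockdown clones 1, 2 and 3, against 8.67, 10.12 and 8.48 in control clones 1, 2 and 3. Of 6 blood and endothelial markers, 5 lay under the lower quartile of every array, and their averages were 3.66 to 3.84 in the knockdown clones and 3.71 to 3.79 in the controls. The 7 fibroblast markers averaged 4.66 to 4.79 in the knockdown clones and 4.63 to 4.68 in the controls, and the 3 measured basal epithelial markers (KRT5, KRT14 and KRT15) 4.93 to 4.98 in the knockdown clones and 4.70 to 4.76 in the controls. All 3 basal markers had higher means in the knockdown clones, 1 of them lay under the lower quartile of every array, and their part in the results was not tested.

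Mean expression was lower in the MBD2 knockdown clones than in the controls for 33 of 34 centromere and kinetochore genes, and CENPN was the exception. The same held for 51.3% of all genes tested. The median log2 fold change over the 34 genes was -0.36, against -0.0043 over all genes, and single genes ranged from -0.66 for CENPW to 0.12 for CENPN. No gene passed the threshold of an adjusted p under 0.05: 0 of 34 were called lower (0.0% of all genes tested) and 0 higher (0.0%). Their adjusted p in limma, with Benjamini-Hochberg adjustment over all genes, lay between 0.229 and 0.974. At an unadjusted p under 0.05, 21 of 34 were lower, beside 5.45% of all genes, and 0 were higher, beside 3.93%. Under other processing, the count of 21 lower genes ran from 14 to 29. It fell to 14 when knockdown clones 2 and 3, the most alike pair, were averaged. Dropping knockdown clone 3 or using a plain equal-variance test also gave 14, and dropping knockdown clone 2 gave 15. The count rose to 28 on dropping knockdown clone 1, and array weighting gave 29. Of all 16704 genes, 1568 had an unadjusted p under 0.05 in the main fit, lower and higher together. This total was 3331 under array weighting and 2671 when knockdown clone 1 was dropped. It was 1106 with knockdown clones 2 and 3 averaged and 1409 under the plain test. Leaving out clone 3 brought 1088, and leaving out clone 2 brought 1243. Totals over all genes rose and fell with the counts among the 34. The 3 knockdown clones were each under every control in 20 of 34 genes, as they did in 8.87% of all genes, and above all 3 controls in 0 of 34 (6.57% of all genes). With array weights 6 genes passed as lower (CDCA8, CENPW, MIS12, SGO2, SPC25 and ZWINT), where 1.15% of all genes did. These counts describe genes that were chosen with earlier results of these data known.

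**Figure D1:**
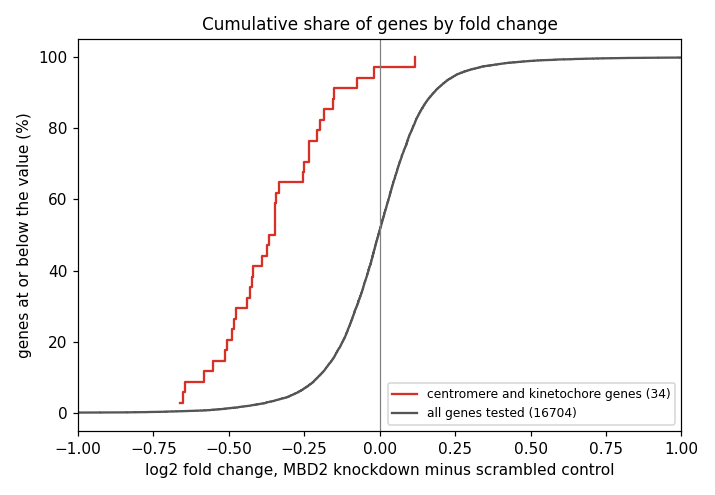
Cumulative share of genes (vertical axis, percent) by log2 fold change, MBD2 knockdown minus scrambled control (horizontal axis, which leaves out the tails of all genes). The red line, the 34 centromere and kinetochore genes, lies left of the grey line of all 16704 genes, with medians of -0.36 and -0.0043.

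The 6 genes with the smallest p were CENPW, CDCA8, SPC25, SGO2, MIS12 and HJURP, and they come from 4 different parts of the structure. Their log2 fold changes were between -0.66 and -0.33. CENPW, a histone-fold protein of the inner CENP-T and CENP-W pair, stood at 7.10, 6.99 and 6.73 in knockdown clones 1, 2 and 3, against 7.69, 7.59 and 7.52 in the control clones. All 3 knockdown clones lay below the lowest control, which left 63.2% of the control level (log2 fold change -0.66, SE 0.11, adjusted p = 0.229 in limma). CDCA8, the borealin subunit of the chromosomal passenger complex, had 8.07, 7.90 and 7.77 in the knockdown clones and 8.52, 8.38 and 8.495 in the controls. The groups did not overlap, and the mean was at 68.2% of the control level (log2 fold change -0.55, SE 0.10, adjusted p = 0.229 in limma).

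The promoters of these 6 genes are shown to set the sequence beside the values, since many genes of mitosis carry a cell-cycle homology region, the letters TTTGAA or TTCGAA, near their start, often with CCAAT boxes bound by NF-Y. Each stretch holds 170 bases before the annotated start and 30 from it on, 5′ to 3′ on the gene's strand, from the RefSeq promoter table of GRCh38.p14. Capitals mark the region's letters, in either form, and the CCAAT box, on either strand, and ATTGG is CCAAT read on the other strand.
CENPW (chr6:126339945-126340144, plus strand): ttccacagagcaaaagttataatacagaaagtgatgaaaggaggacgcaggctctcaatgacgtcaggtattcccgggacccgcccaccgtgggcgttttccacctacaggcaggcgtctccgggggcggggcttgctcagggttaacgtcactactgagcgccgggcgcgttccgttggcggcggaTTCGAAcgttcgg
CDCA8 (chr1:37692346-37692545, plus strand): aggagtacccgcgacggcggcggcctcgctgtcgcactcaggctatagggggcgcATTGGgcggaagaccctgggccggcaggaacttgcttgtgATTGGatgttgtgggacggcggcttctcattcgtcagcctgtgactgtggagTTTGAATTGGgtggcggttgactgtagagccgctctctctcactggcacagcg
SPC25 (chr2:168890401-168890600, minus strand): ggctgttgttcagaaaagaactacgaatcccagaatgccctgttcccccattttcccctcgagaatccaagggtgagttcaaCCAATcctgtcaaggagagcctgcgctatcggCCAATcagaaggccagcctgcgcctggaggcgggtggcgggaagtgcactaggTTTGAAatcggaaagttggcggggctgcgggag
SGO2 (chr2:200525972-200526171, plus strand): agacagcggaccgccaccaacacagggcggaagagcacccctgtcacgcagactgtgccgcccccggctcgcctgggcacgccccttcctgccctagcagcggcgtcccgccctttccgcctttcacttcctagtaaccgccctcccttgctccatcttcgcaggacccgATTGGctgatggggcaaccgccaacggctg
MIS12 (chr17:5486204-5486403, plus strand): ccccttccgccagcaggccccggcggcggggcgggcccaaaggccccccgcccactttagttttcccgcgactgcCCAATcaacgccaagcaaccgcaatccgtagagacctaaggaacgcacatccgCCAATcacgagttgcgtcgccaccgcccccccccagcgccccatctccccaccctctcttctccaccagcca
HJURP (chr2:233854506-233854705, minus strand): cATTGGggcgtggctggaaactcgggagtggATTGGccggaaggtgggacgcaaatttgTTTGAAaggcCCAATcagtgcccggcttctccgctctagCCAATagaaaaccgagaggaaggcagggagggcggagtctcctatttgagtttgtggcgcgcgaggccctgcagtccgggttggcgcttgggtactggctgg
CENPW holds 1 TTCGAA, at position 18 from the start, while CDCA8, SPC25 and HJURP hold 1 TTTGAA each, at -23, -3 and -111. In CDCA8 the last letter of TTTGAA is also the first of an ATTGG. SGO2 and MIS12 hold neither in this stretch, but hold 1 and 2 CCAAT boxes. A link between these letters and the expression values was not tested.

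RefSeq promoter windows of 300 bases, 250 before and 50 from the start on, were found for 27 of 34 genes, as 32 windows. TTTGAA or TTCGAA stood on either strand in 16 of 32 windows, or 50%, against 13.4% of the 19104 windows of genes tested and 16.4% of all 35116 windows. CCAAT stood in 22 of 32, or 68.8%, against 34.5% and 34.6%. The letters TTTNNCGC, a form of the E2F site, stood in 6 of 32, or 18.8%, against 8.47% and 6.89%. CENPN, whose mean was not lower, also holds TTTGAA or TTCGAA, and CCAAT, and a link between letters and fold changes was not tested. MBD2 binds methylated CG, and the windows held 1 (CENPI) to 36 (DSN1) CG dinucleotides with a median of 24.5, against 22 in windows of genes tested. The CENPI window begins at base 101100808 of chromosome X, inside the gene, which begins at base 101098204, so it does not cover the first start of CENPI. The CENPP window that holds CCAAT begins at base 92600007 of chromosome 9, also inside its gene, which begins at base 92325468. Methylation of these windows was not analysed here, and a match of letters is a description, not a binding site.

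**Figure D2:**
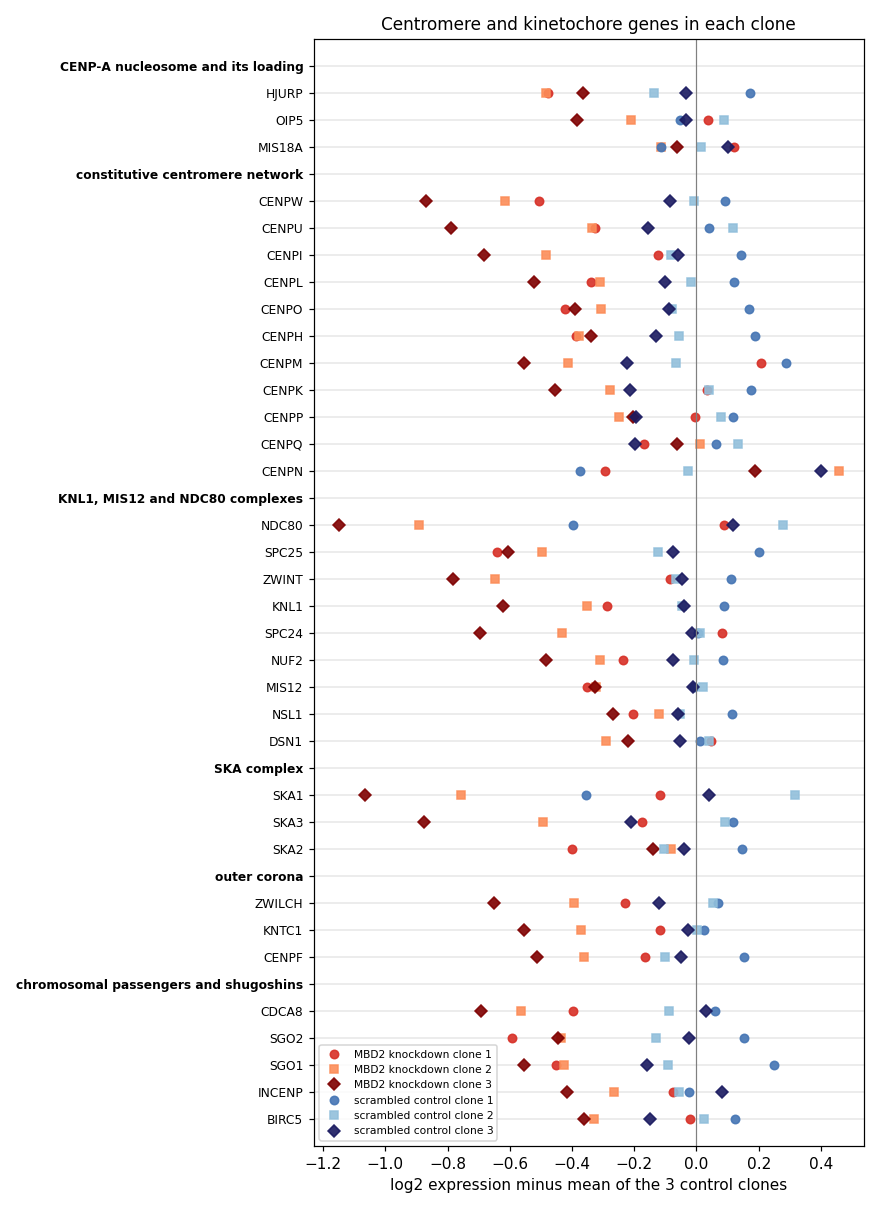
Log2 expression minus the mean of the 3 control clones (horizontal axis) for each of the 34 genes (rows, grouped by role and ordered by fold change), with 1 point per clone. Knockdown clone 3 is the lowest of all 6 clones in 22 rows, and control clone 1 the highest in 23.

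The first role group marks and loads centromeric chromatin. HJURP, the chaperone that deposits CENP-A, stood at 8.19, 8.18 and 8.30 in the knockdown clones, against 8.83, 8.53 and 8.63 in the controls. All knockdown clones were lower than every control (log2 fold change -0.44, SE 0.10, adjusted p = 0.278 in limma). MIS18A and OIP5, subunits of the Mis18 complex that licenses this loading, had overlapping groups. MIS18A was nearest to 0 in the group, with 7.28, 7.05 and 7.10 in the knockdown clones and 7.05, 7.18 and 7.26 in the controls. Its groups overlapped, and the 95% interval of its log2 fold change of -0.018 ran from -0.25 to 0.21. OIP5 had -0.19, with knockdown clone 1 at 7.40, inside the control range of 7.31 to 7.45, and clones 2 and 3 at 7.15 and 6.98. The feature of CENPA, the CENP-A gene, also names SLC35F6 and is not counted. It read 8.02, 7.998 and 7.79 in the knockdown clones and 8.66, 8.36 and 8.29 in the controls, also without overlap.

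The constitutive centromere-associated network bridges CENP-A chromatin and the outer kinetochore, and 10 of its 11 genes had lower means in the knockdown clones. The median log2 fold change was -0.37, and in 6 of 11 genes every knockdown clone lay under every control, beside 8.87% of all genes (CENPH, CENPI, CENPL, CENPO, CENPU and CENPW). Differences between its subcomplexes were not tested. In the CENP-H, -I, -K and -M subcomplex, CENPH had 6.46, 6.47 and 6.51 in the knockdown clones, against 7.03, 6.79 and 6.71 in the controls, so all knockdown clones lay within a narrow range below the controls. CENPM, of the same subcomplex, had 7.63, 7.01 and 6.87 in the knockdown clones against 7.71, 7.36 and 7.20 in the controls. There clone 1 sat among the controls and only clones 2 and 3 below them. CENPI had a log2 fold change of -0.43 and CENPK -0.23. CENPK read 7.70, 7.39 and 7.21 in the knockdown clones and 7.84, 7.71 and 7.45 in the controls, and its difference was -0.12 without knockdown clone 3, -0.15 without control clone 1 and -0.37 without knockdown clone 1.

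Of the CENP-L and CENP-N pair, which reads the CENP-A nucleosome, only CENPL had separate groups. CENPL stood at 5.87, 5.90 and 5.69 in the knockdown clones, against 6.33, 6.19 and 6.11 in the controls (log2 fold change -0.39, SE 0.10, adjusted p = 0.315 in limma). CENPN stood at 9.36, 10.11 and 9.84 in the knockdown clones, against 9.28, 9.63 and 10.05 in the controls. These values spread widely within both groups (SD 0.38 and 0.39), and the interval of its difference of 0.12, from -0.44 to 0.68, holds both directions. Leaving out knockdown clone 2 gave -0.051, and leaving out control clone 1 gave -0.069. The difference between the changes of CENPL and CENPN was not tested.

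In the CENP-O, -P, -Q and -U subcomplex, CENPU and CENPO had log2 fold changes of -0.48 and -0.37 without overlap, while CENPP had -0.15. CENPQ was the gene of the network nearest to 0 at -0.074, with 5.51, 5.69 and 5.62 in the knockdown clones and 5.74, 5.81 and 5.48 in the controls. The lowest CENPQ value of all was that of control clone 3.

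The KNL1, MIS12 and NDC80 complexes form the microtubule-binding core of the outer kinetochore, and all 9 measured genes had lower means, with a median of -0.35. In 6 of 9 every knockdown clone lay under every control (8.87% of all genes). SPC25 stood at 5.79, 5.94 and 5.83 in the knockdown clones, against 6.63, 6.31 and 6.36 in the controls, with all knockdown values lower (log2 fold change -0.58, SE 0.11, adjusted p = 0.229 in limma). MIS12 had tight groups, at 6.84, 6.86 and 6.86 in the knockdown clones against 7.18, 7.21 and 7.17 in the controls. The SD was 0.015 in the knockdown clones and 0.018 in the controls (n = 3 each), and the log2 fold change of -0.33 had the smallest SE of the 34 genes (0.070, adjusted p = 0.257 in limma). Its partners NSL1 and DSN1 had -0.20 and -0.16. DSN1, the gene of the group nearest to 0, read 7.53, 7.19 and 7.26 in the knockdown clones and 7.49, 7.52 and 7.43 in the controls, so that clone 1 was the highest of all. The PMF1 feature, which also names PMF1-BGLAP and is not counted, had a difference of -0.027.

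Of the 4 subunits of the NDC80 rod, NUF2 and SPC25 were lower than every control in all 3 knockdown clones, NUF2 with 8.55, 8.47 and 8.30 in the knockdown clones, against 8.87, 8.77 and 8.71 in the controls. SPC24 and NDC80, the partner of each, were not. SPC24 stood at 8.67, 8.16 and 7.90 in the knockdown clones, against 8.60, 8.60 and 8.58 in the controls, so clone 1 lay above the controls and clones 2 and 3 well below. NDC80 stood at 7.55, 6.57 and 6.31 in the knockdown clones, against 7.06, 7.74 and 7.58 in the controls. It had the second largest mean difference of the 34 genes (log2 fold change -0.65) but the widest interval, from -1.40 to 0.098. Leaving out knockdown clone 1 gave -1.02, and leaving out knockdown clone 3 gave -0.40. SPC24 and NDC80 were singled out here after their values were seen. KNL1, the scaffold for spindle checkpoint proteins, had -0.42 without overlap, and ZWINT, which links KNL1 to the RZZ complex, had 8.89, 8.33 and 8.19 in the knockdown clones, against 9.09, 8.91 and 8.93 in the controls (-0.51, adjusted p = 0.435 in limma). Without knockdown clone 1, ZWINT was the 1 gene of the 34 past the threshold (adjusted p = 0.0498 in limma, log2 fold change -0.715), where 0.18% of all genes passed as lower. CDCA8 and CENPW fell just short of it in that fit (adjusted p = 0.0502 and 0.0509 in limma).

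**Figure D3:**
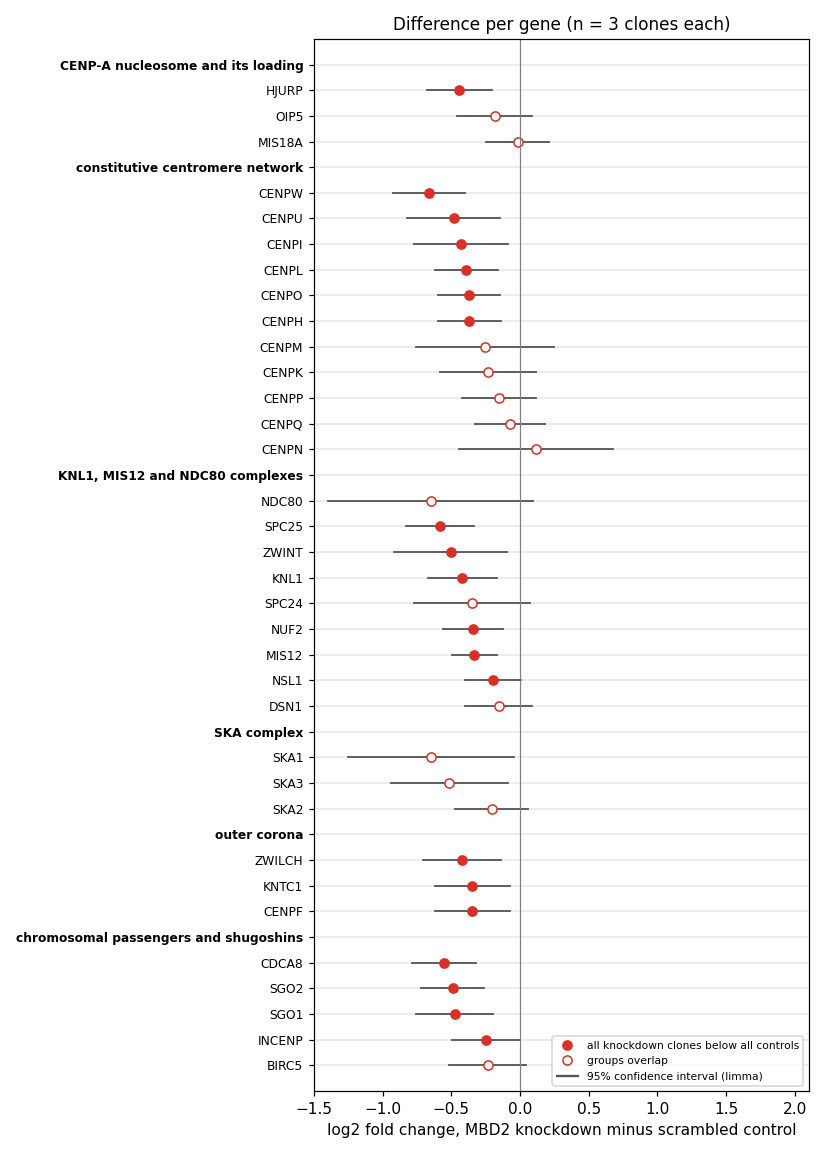
Log2 fold change, MBD2 knockdown minus scrambled control, of each gene (points) with its 95% confidence interval from limma (lines), by role. Filled points are the 20 genes whose groups did not overlap, and NDC80 and SKA1 have the widest intervals.

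The SKA complex holds the kinetochore on depolymerising microtubule ends, and its 3 genes had log2 fold changes of -0.65 (SKA1), -0.51 (SKA3) and -0.21 (SKA2), with overlap in each. SKA3 stood at 8.05, 7.74 and 7.35 in the knockdown clones, against 8.34, 8.32 and 8.02 in the controls, so clone 1 was just above the lowest control. SKA1 had 5.46, 4.82 and 4.51 in the knockdown clones, against 5.22, 5.89 and 5.62 in the controls, near the lower quartile of the arrays, which lay between 4.68 and 4.81. SKA2 has 2 features. The brighter, used here, has a feature number among those of genes on chromosome 9 (10 of the 10 nearest placed features), while SKA2 lies on chromosome 17. The dimmer one, numbered among chromosome 17 genes, gave -0.32.

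The outer corona was measured by 3 genes, and in 3 of 3 every knockdown clone lay under every control (8.87% of all genes). ZWILCH, of the RZZ complex that carries checkpoint proteins, stood at 9.20, 9.03 and 8.78 in the knockdown clones, against 9.50, 9.48 and 9.31 in the controls (log2 fold change -0.42, SE 0.12, adjusted p = 0.361 in limma). CENPF, a large coiled-coil protein of the corona, was nearest to 0 in the group at -0.35, with 9.27, 9.08 and 8.93 in the knockdown clones, against 9.59, 9.34 and 9.39 in the controls. KNTC1, the ROD subunit of RZZ, also had -0.35. All 3 genes had clone 3 lowest and clone 1 highest among the knockdown clones.

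Among the chromosomal passengers and shugoshins, 4 of 5 genes had every knockdown clone under every control (8.87% of all genes), and the median was -0.48. SGO2, which protects centromeric cohesion and recruits the microtubule depolymerase MCAK, stood at 6.90, 7.05 and 7.04 in the knockdown clones, against 7.64, 7.36 and 7.47 in the controls (log2 fold change -0.49, SE 0.10, adjusted p = 0.232 in limma). SGO1, the shugoshin of mitosis, had -0.48, with 7.79, 7.81 and 7.68 in the knockdown clones, against 8.49, 8.15 and 8.08 in the controls. The scaffold INCENP had -0.25. BIRC5, which codes for survivin, was nearest to 0 at -0.24, with 8.11, 7.80 and 7.77 in the knockdown clones, against 8.26, 8.16 and 7.98 in the controls. Its clone 1 value lay inside the control range.

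The knockdown clones differed in how many genes lay below every control. Clone 1 did so in 21 of 34 genes, where 27.9% of all genes did. Clone 2 did so in 30 (31.2% of all genes), and clone 3 in 31 (34.3%). Averaged over the 34 genes, the deviation from the controls' mean was -0.205, -0.35 and -0.50 in knockdown clones 1, 2 and 3, against 0.057, -0.001 and -0.056 in control clones 1, 2 and 3. Clone 3 was the lowest of all 6 clones in 22 of 34 genes (22.5% of all genes), and control clone 1 the highest in 23 (16.8% of all genes). For 10 genes clones 2 and 3, but not clone 1, were under every control: BIRC5, CENPK, CENPM, CENPP, DSN1, NDC80, OIP5, SKA1, SKA3 and SPC24. The share of all genes with this pattern was not counted. All 3 knockdown clones were under every control in 8.87% of all genes. Without knockdown clone 1 the count without overlap was 30 of 34, beside 20.8% of all genes, and the median was -0.43.

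**Figure D4:**
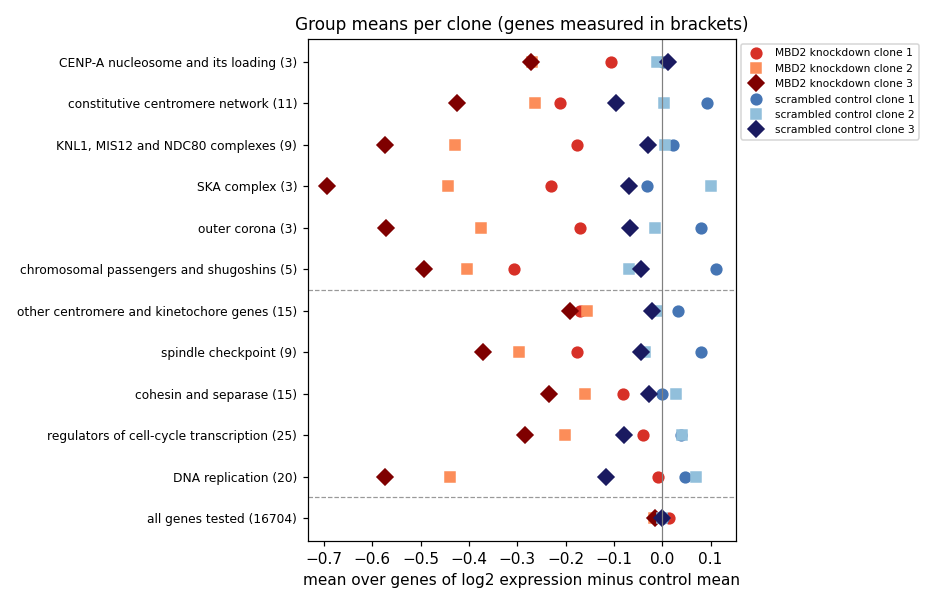
Mean over genes of log2 expression minus the control mean (horizontal axis) for each clone (points), for the 6 role groups, 5 further gene lists and all genes, with the number of genes measured in brackets. In every role group the 3 knockdown clones lie left of the 3 controls. Knockdown clone 1 lies among the controls for DNA replication, at -0.009, and for regulators of cell-cycle transcription, at -0.041.

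Other genes of chromosome segregation and the cell cycle were read from lists drawn up by function. In limma 0 of their members had an adjusted p under 0.05, and the counts at an unadjusted p under 0.05 follow. Over all genes 51.3% had lower means and 5.45% were lower at that p. Of 15 other measured centromere and kinetochore genes, 12 had lower means, with a median of -0.14, and 5 had an unadjusted p under 0.05, all lower. NDE1, a dynein adaptor, had -0.41 and SPDL1, which brings dynein to kinetochores, had -0.38. CENPT, the partner of CENPW, had a positive difference of 0.18, with 6.73, 6.65 and 6.69 in the knockdown clones and 6.61, 6.43 and 6.496 in the controls. CENPT was singled out after its values were seen. Of 9 spindle checkpoint genes 8 had lower means (median -0.28, 6 lower at an unadjusted p under 0.05), with -0.48 for the kinase TTK and -0.38 for the kinase BUB1. Of 15 cohesin and separase genes 12 had lower means (median -0.19, 4 lower at that p), with -0.33 for the acetyltransferase ESCO2 and -0.26 for the cohesin subunit RAD21.

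Of 25 regulators of cell-cycle transcription 23 had lower means (median -0.17, 4 lower at that p). LIN9, a core subunit of the MuvB complex that binds the cell-cycle homology region, stood at 6.84, 6.999 and 7.01 in the knockdown clones, against 7.47, 7.37 and 7.25 in the controls. The repressor E2F8 had -0.52. All 20 DNA replication genes had lower means (median -0.35, 7 lower at that p), beside 51.3% and 5.45% of all genes, with -0.35 for the helicase subunit MCM6 and -0.56 for RRM2 of ribonucleotide reductase. MCM6 and RRM2 both lie on chromosome 2, where the median deviation of the brighter genes was -0.24 in knockdown clone 1. The replication genes averaged -0.009, -0.44 and -0.57 in knockdown clones 1, 2 and 3, so clone 1 stood at the control mean. In clone 1 the centromere and kinetochore genes averaged -0.205, and the difference between the lists was not tested.

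Chromosome-wide levels moved with some of these values. The median deviation of the brighter 50% of chromosome 18 genes (103 genes) from their mean over the 6 clones was 0.17, -0.20 and -0.22 in knockdown clones 1, 2 and 3, against -0.19, 0.27 and 0.23 in control clones 1, 2 and 3. NDC80 and SKA1 both lie on chromosome 18 and followed that order of clones, with knockdown clones 2 and 3 low and control clone 1 the lowest control. MBD2 lies there too. On chromosome 2 (542 genes) the median was -0.24, 0.052 and 0.066 for knockdown clones 1, 2 and 3, against 0.11, -0.061 and 0.06 for the control clones. CENPO, HJURP, SGO2 and SPC25 lie on chromosome 2, and knockdown clone 1 was the lowest knockdown clone in 3 of these 4, against 5 of 28 genes on chromosomes other than 2 and 18. All 4 had control clone 1 as the highest control, and so did 19 of the 28 genes on chromosomes other than 2 and 18.

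**Figure D5:**
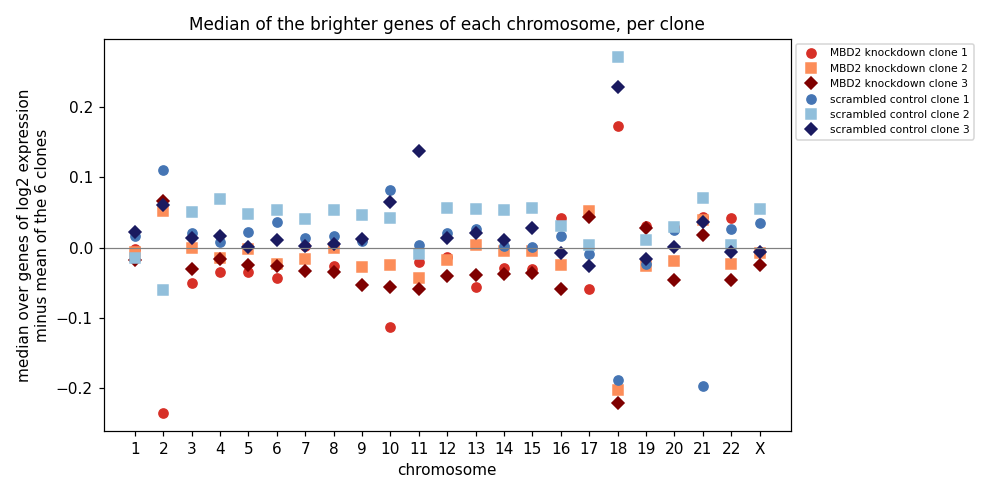
Median over the brighter genes of each chromosome (horizontal axis) of log2 expression minus the mean of the 6 clones (vertical axis), with 1 point per clone. Chromosome 18 splits the clones 3 and 3 across the groups, with knockdown clones 2 and 3 and control clone 1 low, and chromosome 2 is low in knockdown clone 1.

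Expressed relative to the median of their chromosome on each array, an alternative chosen after the data had been seen, 33 of 34 genes still had lower means. The median was -0.34, and 19 genes had separate groups, beside 5.74% of all genes. NDC80 then had 7.37, 6.77 and 6.53 in the knockdown clones and 7.25, 7.47 and 7.35 in the controls, a difference of -0.46 (adjusted p = 0.507 in limma). SKA1 had -0.46 in place of -0.65, and its groups no longer overlapped, at 5.29, 5.03 and 4.74 in the knockdown clones, against 5.41, 5.62 and 5.39 in the controls. The 4 genes on chromosome 2 kept separate groups, with differences between -0.50 for SPC25 and -0.30 for CENPO. SKA2 counts among the 19 when read against chromosome 17, but its groups overlapped against chromosome 9, where its feature number lies, which leaves 18. ZWINT, INCENP and CENPI, on chromosomes 10, 11 and X, overlapped on that scale, with -0.38, -0.17 and -0.39. The chromosome 10 median was -0.114, -0.025 and -0.056 in knockdown clones 1, 2 and 3. It was 0.082, 0.042 and 0.065 in control clones 1, 2 and 3. Leaving out chromosomes 2 and 18, 27 of 28 genes had lower means, with a median of -0.34, and 16 had every knockdown clone under every control. Over all genes, with chromosomes 2 and 18 included, these shares were 51.3% and 8.87%. What sets the chromosome-wide levels apart between clones was not tested.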

How the data were processed

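Expression was measured in 6 LNCaP clones, 1 array each. The authors deposited log2 expression values per array feature, and the submitters' processing notes list RMA, oligo and limma without versions. That RMA made these values, and the log2 scale, were taken from those notes and from the range of the values. Any filter is not stated in the labels. Values were used as deposited.

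Of 19712 features, 17334 carry 1 gene symbol in the platform annotation, and each gene kept its brightest feature over the 6 arrays, which left 16704 genes. MBD2 knockdown was compared with scrambled control with limma 3.58.1 (lmFit, eBayes; R 4.3.3), without covariates, with Benjamini-Hochberg adjustment over all genes. Fold changes are knockdown minus control on the log2 scale, and SE and 95% intervals come from the same fit. Errors given as SD have n = 3 clones per group. Chromosome medians used the brighter 50% of genes and chromosomes with at least 50 of them. Tables and motif counts were made in Python 3.11.15 with pandas 2.3.3.

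The genes and lists were chosen with earlier results of these data known. Values in every clone are given for the 6 genes of smallest p, and in each role group for the gene of smallest p and, in groups of 4 or more named genes, the gene nearest to 0. Of each further list the 2 genes of smallest p are named. Other values by clone were chosen after they were seen. Alternatives were other normalizations, array weights, eBayes with trend and robust fitting, leaving out genes in the lowest 30% by mean, a block for the replicate number, averaging a gene's features, clones 2 and 3 averaged, leaving out each array, a threshold of 0.1, a plain equal-variance test and values relative to chromosome medians. The number of arrays limits the precision. The design text describes separate clones, so p-values cover the spread between clones.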

Additional observations from a re-analysis of the deposited data

How the results depend on the processing

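Of 18 alternatives, 5 cannot change a fold change, and under the other 13 the direction of 32 of 34 genes was the same, as was the median's where recomputed. Leaving out 1 array moved the fold change of 12 genes by over 1.5 times (CENPK, CENPM, CENPN, CENPP, CENPQ, DSN1, MIS18A, NDC80, OIP5, SKA2, SKA3 and SPC24), for example between -0.484 and -0.102 for CENPM, -0.563 and -0.175 for SPC24, and -0.684 and -0.333 for SKA3. MIS18A, at -0.018, was 0.033 after repeated quantile normalization, 0.013 after cyclic loess, 0.017 with knockdown clones 2 and 3 averaged, and lay between -0.088 and 0.032 when each array was left out (0.029, 0.004 and 0.032 without knockdown clone 2, knockdown clone 3 and control clone 3). CENPN, at 0.118, lay between -0.069 and 0.323 when each array was left out, with -0.051 on leaving out knockdown clone 2 and -0.069 on leaving out control clone 1. The cause was not tested. Genes past the threshold as lower numbered 6 with array weights and between 0 and 1 when each array was left out (1 without knockdown clone 1), and 0 under the others, a threshold of 0.1 included. The weights ranged between 0.252 (knockdown clone 1) and 3.43 (knockdown clone 2). The median ranged from -0.43 without knockdown clone 1 to -0.308 without knockdown clone 3. The count without overlap ranged from 17 after quantile normalization or cyclic loess to 30 without knockdown clone 1. Beside these counts stood 7.25% of all genes after quantile normalization, 7.3% after cyclic loess and 20.8% without knockdown clone 1. MBD2 had -1.271 with array weights and between -1.445 and -1.187 when arrays were left out, passing with array weights, without knockdown clone 1 and without control clone 1. Over all genes, deviations of same-numbered clones had r = -0.0252, -0.189 and 0.174 for numbers 1, 2 and 3. Differently numbered clones had r between -0.165 and 0.218. In the 28 centromere and kinetochore genes on chromosomes other than 2 and 18, knockdown clone 1 was the highest knockdown clone in 20 and the lowest in 5. Control clone 1 was the highest control in 19 of them and the lowest in 3. Whether these genes deviate together by clone number was not tested. With the replicate block the median was -0.358 and 0 genes passed.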

Other observations

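Chromosome 21, on which MIS18A lies, had a median deviation of -0.20 in control clone 1 and between 0.018 and 0.071 in the other clones, and relative to it MIS18A had -0.082 in place of -0.018. Chromosome 11 had 0.14 in control clone 3 and between -0.059 and 0.003 in the others. MBD2, relative to chromosome 18, stood at 7.51, 8.04 and 8.03 in knockdown clones 1, 2 and 3, against 8.92, 8.97 and 8.97 in the controls, a difference of -1.09 in place of -1.28. The second feature of BIRC5 read 5.20, 4.94 and 5.00 in the knockdown clones and 5.32, 5.23 and 5.15 in the controls.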
